A study of Mus musculus with 30 samples.

Results

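C2C12 cells, an established mouse myoblast line, were differentiated into myotubes on patterned gelatin, a hydrogel molded with parallel grooves along which the myotubes align. The comparison described here set patterned myotubes at day 7 of differentiation (3 libraries) against patterned myotubes at day 4 (3 libraries), and asked how aligned myotubes changed as they matured. The libraries were chosen by their labels alone, as C2C12 cells on patterned gelatin at day 7 or day 4, which gave 6 of the 30 libraries of the series. The other groups, with 3 libraries each, were C2C12 myotubes at day 7 and day 4 on unpatterned gelatin (the same gel without grooves) and on plastic, undifferentiated C2C12 myoblasts on plastic at day 0, and primary mouse cells on patterned gelatin at day 7 and day 4 and on plastic at day 0. Both patterned groups were the same unmodified line in the same low-serum differentiation medium, and differed by their labels in the day of collection. Each library came from a separate culture of that 1 line, briefly trypsinised before lysis to enrich for myotubes, so the spread between libraries is that between cultures and not between animals.

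Myoblasts leave the cell cycle, fuse into multinucleated myotubes and assemble sarcomeres, the repeating contractile units of muscle. The first sarcomeres use embryonic and perinatal isoforms of their proteins, which are later exchanged for adult fast or slow isoforms. In muscle of the animal this exchange runs from late gestation into postnatal life, and calcium handling, energy metabolism and parts of the translation machinery also move to muscle-specific forms.

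The estimated counts of each library summed to 30.03, 16.8 and 13.1 M (M, 1000000 counts) at day 7 and to 28.7, 31.1 and 26.9 M at day 4 (replicates 1, 2 and 3), within the 13.1 to 59.4 M of the whole series. Levels are given below as CPM (counts per 1000000 counts), scaled by the trimmed mean of M values. The marker sums and the markers counted under 1 CPM in this paragraph are raw CPM, without that scaling. Replicate 3 of day 7 stood apart: the median gene differed by 0.27 and 0.32 on the log2 scale between it and the other day 7 libraries, against 0.16 between replicates 1 and 2, and against 0.11 to 0.13 between day 4 libraries. The skeletal myotube markers together made up 13804 to 15893 CPM at day 7 and 14784 to 14942 CPM at day 4. Of the markers of other cell types, 4 of 6 macrophage or leukocyte genes, 5 of 7 adipocyte genes, 4 of 6 neuron or Schwann cell genes and 2 of 7 smooth muscle genes (Myh11 and Cnn1) were under 1 CPM in all 6 libraries. The summed fibroblast markers ran from 87.0 to 133.6 CPM at day 7 and from 91.5 to 109.6 CPM at day 4. The sums of 2 other lists did not overlap between the days: smooth muscle markers made up 6136 to 8649 CPM at day 7 and 5353 to 5774 CPM at day 4 (1 gene higher), and neuron or Schwann cell markers 11.2 to 12.9 CPM at day 7 and 18.8 to 23.4 CPM at day 4 (1 gene lower). The smooth muscle list was Acta2, Myh11, Cnn1, Tagln, Actg2, Smtn and Des, and its sum does not say which members carried it. The part of these other cell types in the results was not tested.

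A property of the libraries moved with the day. The mean length of the sequenced fragments, which the deposited effective transcript lengths imply, was 175.2, 188.8 and 183.8 bases at day 7 and 232.5, 247.3 and 244.9 bases at day 4. The groups did not overlap (182.6 ± 6.9 bases at day 7 and 241.6 ± 7.9 bases at day 4, SD, n = 3 each, 2-sided exact permutation p = 0.1, the smallest that 3 against 3 allows). On patterned gelatin, day and fragment length therefore cannot be told apart. The unpatterned day 7 group offered a view of both, because its replicate 1 had long fragments (245.7 bases) and its replicates 2 and 3 had short ones (197.9 and 197.3 bases). Its libraries are set beside the patterned values where they bear on them.

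**Figure D1:**
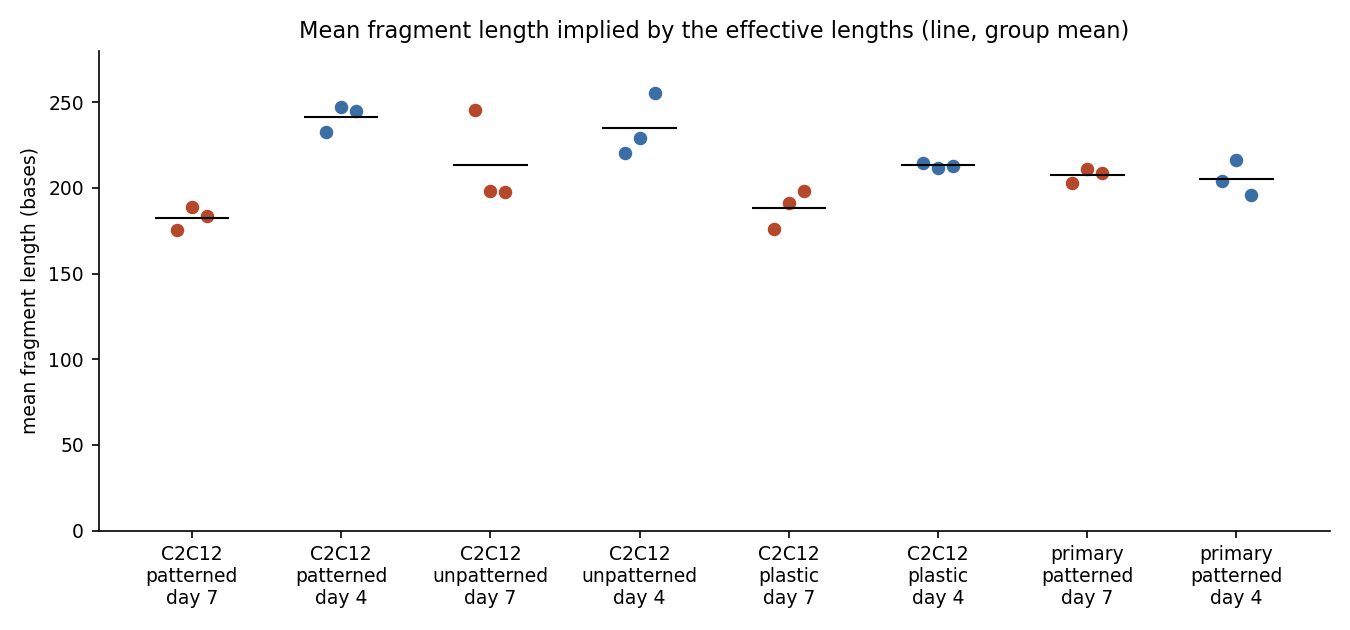
Mean fragment length in bases (vertical axis) for each library of 8 groups, day 7 to the left of day 4 for each culture, with a line at the group mean. The 3 patterned day 7 libraries lay between 175.2 and 188.8 bases and the 3 patterned day 4 libraries between 232.5 and 247.3 bases, while the unpatterned day 7 libraries spanned 197.3 to 245.7 bases.

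Of 14844 genes tested in a fit of all 21 C2C12 libraries, 3016 changed between day 7 and day 4 (edgeR quasi-likelihood test, Benjamini-Hochberg adjusted p under 0.05), which is 20.3% of the genes. At day 7, 1676 genes were higher (11.3%) and 1340 were lower (9.03%), and the median log2 fold change over all genes was -0.0016. The CPM of the 2 groups did not overlap for 5531 genes (37.3%). The count differed between fits. With the 6 patterned libraries alone, 224 of 14015 genes passed (1.60%, 160 higher and 64 lower), and with fragment length as a term in the fit of 21 libraries 8 genes passed (0.0539%). Leaving out each of the 6 libraries in turn gave 1222 to 4012 genes, with 1511 without day 7 replicate 3 and 1644, 1832 and 1222 without day 4 replicates 1, 2 and 3. A core of 903 genes was called in all 6 of those fits (460 higher, 443 lower), and 179 genes (129 higher, 50 lower) were called under every alternative planned for this comparison.

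The adult fast fibre isoforms rose more often than genes in general. Of 21 such genes measured, 12 rose at day 7 (11.3% of all genes did), none fell, and their median log2 fold change was 0.59. Without day 7 replicate 3, 7 of them were called, 6 were called without each library in turn, and none passed with the fragment length term, under which the list median was 0.18. Casq1 encodes calsequestrin 1, the calcium store of the fast fibre sarcoplasmic reticulum. Its level was 297.3, 298.2 and 320.8 CPM at day 7 and 146.7, 126.3 and 143.9 CPM at day 4. All day 7 libraries were above all day 4 libraries, with a log2 fold change of 1.14 ± 0.14 (SE, adjusted p = 0.00015). Per length of transcript, Casq1 supplied 29.4 ± 0.5% of the summed calsequestrin TPM (Casq1 and Casq2, TPM being transcripts per 1000000 transcripts) at day 7 and 18.3 ± 0.6% at day 4 (SD, n = 3 each). On the other substrates that share was 21.1 ± 2.0% at day 7 and 14.9 ± 0.3% at day 4 on unpatterned gelatin, and 19.1 ± 0.9% at day 7 and 14.7 ± 2.4% at day 4 on plastic.

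Pvalb, parvalbumin, buffers calcium in fast fibres. It stood at 14.6, 19.7 and 19.7 CPM at day 7 and at 4.66, 6.28 and 5.9995 CPM at day 4 (log2 fold change 1.66 ± 0.25, adjusted p = 0.00052). In unpatterned cells it was at 4.28 to 6.24 CPM at day 7 and 4.30 to 4.59 CPM at day 4, a range that the patterned day 7 libraries exceeded. Tnni2, the fast troponin I, was at 567.6, 541.9 and 810.1 CPM at day 7 and 392.1, 288.6 and 388.9 CPM at day 4 (log2 fold change 0.84 ± 0.22, adjusted p = 0.015), and lost its call without day 7 replicate 3 or day 4 replicate 2 (adjusted p up to 0.084). Mybpc2 and Mybpc1, the fast and slow forms of myosin binding protein C, both rose, by 0.75 ± 0.11 and 0.84 ± 0.10 on the log2 scale. Acta1, skeletal muscle actin, rose by 0.41 ± 0.14 (adjusted p = 0.045) to 5110, 5900 and 5022 CPM, against 3973, 4148 and 3972 CPM at day 4. That call and those of Cox7a1 and Myh4 were lost when libraries were left out (adjusted p up to 0.14, 0.14 and 0.12).

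Neighbouring myosin heavy chain genes on mouse chromosome 11 moved in opposite directions. Myh3 encodes the embryonic chain, Myh2, Myh1 and Myh4 the adult fast chains IIa, IIx and IIb. Myh3 fell to 3100, 3251 and 3413 CPM at day 7, against 5707, 4840 and 5436 CPM at day 4 (log2 fold change -0.71 ± 0.15, adjusted p = 0.0061). Myh2 rose to 138.0, 141.5 and 149.5 CPM, against 60.6, 42.6 and 53.1 CPM (1.46 ± 0.15, adjusted p = 2.1e-05). Myh1 rose to 4055, 4278 and 4583 CPM, against 2665, 2314 and 2575 CPM (0.77 ± 0.13, adjusted p = 0.0012). Myh4 was at 297.7, 258.0 and 235.5 CPM at day 7 and 176.0, 155.6 and 167.9 CPM at day 4 (0.66 ± 0.22, adjusted p = 0.042). Perinatal Myh8 and slow Myh7 overlapped between the days, with log2 fold changes of 0.07 ± 0.11 and 0.03 ± 0.12. These genes are close paralogs, so their counts depend on how the quantifier split shared reads.

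As shares of the summed TPM of the 6 chains, Myh1 supplied 47.8, 47.5 and 54.1% at day 7 and 28.3, 28.7 and 28.03% at day 4, while Myh3 supplied 33.2, 32.9 and 29.96% at day 7 and 55.6, 54.7 and 55.5% at day 4. IIx thus exceeded the embryonic chain in each day 7 library and lay under it in each day 4 library (2-sided exact permutation p = 0.1 for each gene, the smallest possible). The shares on the other substrates were similar in direction. Myh1 supplied 45.5 ± 2.1% at day 7 and 27.1 ± 0.7% at day 4 on unpatterned gelatin, and 47.8 ± 3.3% at day 7 and 25.7 ± 1.8% at day 4 on plastic. Myh2 remained minor, at 1.32 to 1.497% of the 6 chains at day 7 and 0.48 to 0.59% at day 4.

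**Figure D2:**
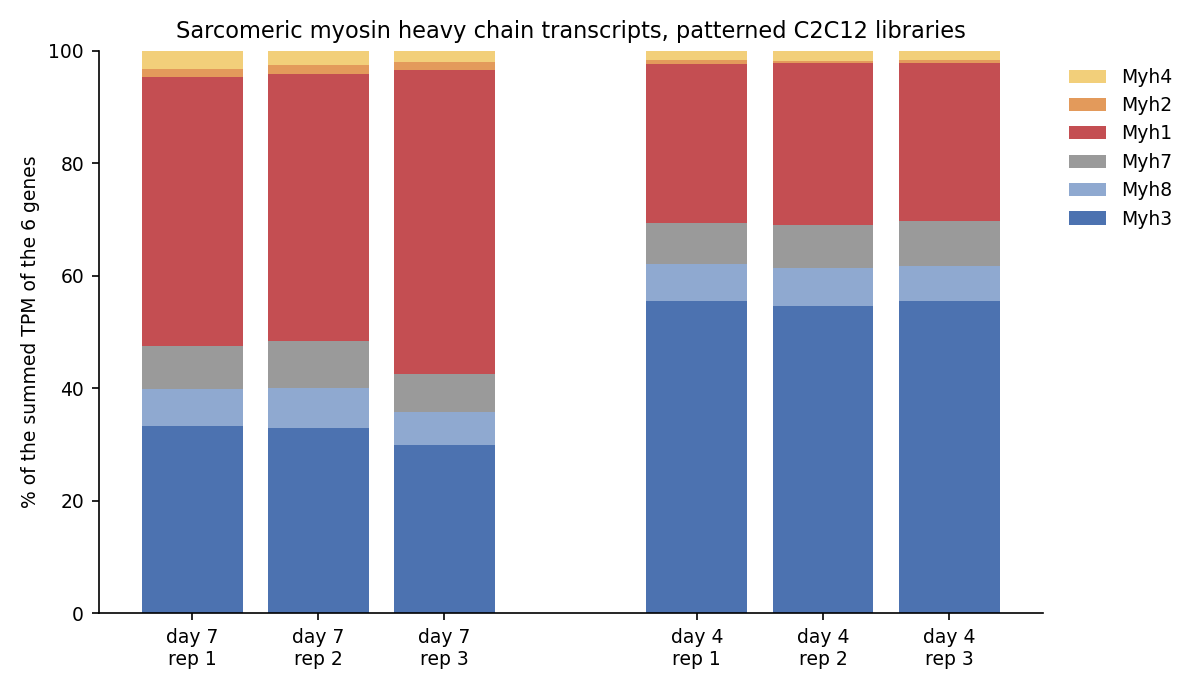
Share of each of 6 sarcomeric myosin heavy chain genes in their summed TPM (vertical axis, percent), 1 bar per patterned library, day 7 to the left of day 4. Myh1 took 47.5 to 54.1% of each day 7 bar and 28.03 to 28.7% of each day 4 bar, and Myh3 took 29.96 to 33.2% at day 7 and 54.7 to 55.6% at day 4.

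The promoters of the chromosome 11 genes are shown because these neighbours differed in direction, and that of Casq1 because it rose with the adult chains. Each is the RefSeq window (GRCm38.p6) of 250 bases before to 50 after the start of the gene, written 5′ to 3′ on the strand of the gene, at chr11:67078050-67078349 (Myh3, plus), chr11:67170777-67171076 (Myh2, plus), chr11:67199852-67200151 (Myh1, plus), chr11:67237562-67237861 (Myh4, plus) and chr1:172219846-172220145 (Casq1, minus). Capitals mark each CANNTG, the E-box bound by myogenic factors, and each match to the MEF2 motif.
Myh3: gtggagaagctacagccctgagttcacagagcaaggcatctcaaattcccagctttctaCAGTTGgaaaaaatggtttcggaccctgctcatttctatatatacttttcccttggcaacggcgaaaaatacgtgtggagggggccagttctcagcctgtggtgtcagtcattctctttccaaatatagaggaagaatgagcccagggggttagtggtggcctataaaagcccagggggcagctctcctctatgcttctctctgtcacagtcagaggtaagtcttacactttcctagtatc
Myh2: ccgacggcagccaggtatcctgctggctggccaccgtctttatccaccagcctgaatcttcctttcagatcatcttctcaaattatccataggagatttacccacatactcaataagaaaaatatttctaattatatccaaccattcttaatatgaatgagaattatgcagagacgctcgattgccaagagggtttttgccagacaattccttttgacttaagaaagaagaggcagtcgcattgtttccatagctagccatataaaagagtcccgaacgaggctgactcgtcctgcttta
Myh1: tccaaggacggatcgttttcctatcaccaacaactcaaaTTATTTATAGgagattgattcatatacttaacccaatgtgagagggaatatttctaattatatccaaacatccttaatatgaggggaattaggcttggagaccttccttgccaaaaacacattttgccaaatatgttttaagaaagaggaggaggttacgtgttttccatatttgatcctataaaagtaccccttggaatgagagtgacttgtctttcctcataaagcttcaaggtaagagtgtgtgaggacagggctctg
Myh4: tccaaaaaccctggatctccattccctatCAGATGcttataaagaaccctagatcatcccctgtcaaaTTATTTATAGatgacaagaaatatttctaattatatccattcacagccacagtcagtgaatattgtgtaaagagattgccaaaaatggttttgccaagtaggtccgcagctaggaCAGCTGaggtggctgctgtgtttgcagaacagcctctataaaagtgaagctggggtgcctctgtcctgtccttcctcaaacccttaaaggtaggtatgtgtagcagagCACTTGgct
Casq1: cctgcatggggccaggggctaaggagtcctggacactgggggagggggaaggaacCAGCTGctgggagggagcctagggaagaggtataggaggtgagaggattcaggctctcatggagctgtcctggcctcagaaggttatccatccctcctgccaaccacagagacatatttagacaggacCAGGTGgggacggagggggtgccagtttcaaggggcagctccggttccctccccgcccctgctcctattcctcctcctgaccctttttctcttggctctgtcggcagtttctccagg
The embryonic Myh3 window held 1 CANNTG and no MEF2 match, the Myh1 window held 1 MEF2 match and no CANNTG, and the Myh2 window held neither. Myh4 had 3 CANNTG and 1 MEF2 match, and Casq1 had 2 CANNTG. The MEF2 matches of Myh1 and Myh4 were the same 10 letters. CANNTG, which reads the same in its pattern on both strands, is common: 72.3% of 32851 RefSeq promoter windows held at least 1. The form CAGCTG, counted within CANNTG, was in 16.3% of all windows and in 11 of the 18 windows found for 17 genes of the adult fast fibre list. The MEF2 motif, a palindromic pattern, was in 3.19% of all windows and in 3 of those 18. A match is a description of the letters and not evidence of binding.

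Most genes of the 3 sarcomere component lists did not pass, and the calls were mainly upward. Of 33 Z disc and intermediate filament genes 11 rose and none fell (median log2 fold change 0.33), of 22 thin filament genes 6 rose and none fell (0.19), and of 27 thick filament and M band genes 9 rose and 5 fell (0.30), against 11.3% higher and 9.03% lower among all genes. Without day 7 replicate 3 the counts were 8, 3, and 8 higher with 4 lower. Tcap, the cap of titin at the Z disc, stood at 72.2, 78.2 and 137.7 CPM at day 7 and 42.0, 35.8 and 44.8 CPM at day 4 (1.23 ± 0.21, adjusted p = 0.0016). Ankrd23, which binds titin and responds to stretch, rose to 278.8, 294.7 and 257.9 CPM, against 174.4, 184.3 and 174.0 CPM (0.64 ± 0.11). Fhl1, a LIM domain protein, rose by 0.61 ± 0.10. Xirp2, an actin cross-linking protein of the Z disc region, was at 86.5, 22.6 and 99.97 CPM at day 7 and 19.03, 11.7 and 24.04 CPM at day 4, so replicate 2 of day 7 lay within the day 4 range despite a log2 fold change of 1.93 ± 0.37.

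Tnnc1, the slow and cardiac troponin C, was at 2526, 2443 and 5458 CPM at day 7 and 1662, 1355 and 1413 CPM at day 4 (1.23 ± 0.27, adjusted p = 0.0062), with replicate 3 far above the other day 7 libraries. Ttn and Neb, the giant templates of the thick and thin filament, did not pass. Ttn was at 16678, 6435 and 17943 CPM at day 7 and 19120, 18684 and 21236 CPM at day 4, and Neb at 4277, 1185 and 3264 CPM at day 7 and 4564, 4525 and 5263 CPM at day 4. For both, all day 7 libraries were under all day 4 libraries, and replicate 2 of day 7 was the lowest. Actn3, the fast fibre alpha-actinin, did not pass either (0.27 ± 0.13, adjusted p = 0.14). The long transcripts as a class lay low at day 7: the median log2 fold change was -0.23 over 257 genes with transcripts over 8192 bases and 0.15 over 1423 genes with transcripts over 512 and up to 1024 bases, while on plastic the same classes had 0.08 and -0.06. With the length trend removed, the log2 fold changes were -0.27 for Ttn and -0.58 for Neb, against -0.52 and -0.72 without that step.

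At the nerve-facing and membrane side, 4 of 15 neuromuscular junction genes rose and none fell, against 11.3% higher among all genes. Without day 7 replicate 2, 2 of them rose, and none of the 4 was called in every fit without 1 library. Chrng, the fetal gamma subunit of the acetylcholine receptor, rose to 646.2, 638.3 and 654.7 CPM, against 425.9, 464.5 and 436.8 CPM at day 4 (0.55 ± 0.14, adjusted p = 0.014, and 0.053 without day 4 replicate 3). The adult epsilon subunit Chrne was at 3.12, 3.81 and 2.14 CPM at day 7 and 1.30, 2.53 and 1.70 CPM at day 4, overlapping and not called. The gamma subunit therefore made up 99.0 to 99.4% of the gamma and epsilon TPM at day 7 and 99.2 to 99.6% at day 4.

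Besides passing in the fit of 21 libraries, 8 genes passed with the 6 libraries alone and with the fragment length term: Car3, Itga9, Myh14, Eef1a2, Hspb7, Ighm and Cxcl5, which were higher at day 7, and Akap12, which was lower. All but Itga9 were among the 179 genes above. Itga9 did not pass by limma on log2(TPM + 1), with an adjusted p of 0.059. Eef1a2, Ighm and Akap12 are outside the rule by which genes were named and were chosen after their values were seen. Car3 encodes carbonic anhydrase 3, an abundant cytosolic enzyme of muscle. It was at 351.5, 451.1 and 383.3 CPM at day 7 and 79.5, 68.8 and 82.2 CPM at day 4, a log2 fold change of 2.36 ± 0.13 (adjusted p = 7.4e-09). With the fragment length term its log2 fold change was 2.50. In unpatterned cells Car3 was at 226.9 CPM in the long-fragment day 7 library and at 214.2 and 222.1 CPM in the others, against 78.9 to 85.3 CPM at day 4.

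Eef1a2 is the muscle and neuron form of translation elongation factor 1 alpha, which takes over from the ubiquitous Eef1a1 after birth in muscle. It was at 6.20, 8.10 and 4.13 CPM at day 7 and 0.11, 0.39 and 0.15 CPM at day 4 (4.75 ± 0.41, adjusted p = 2.6e-06). Even so it reached 0.043 to 0.093% of the summed TPM of both forms at day 7, so Eef1a1 supplied nearly all of it. Another translation gene with a muscle-restricted form, chosen after its values were seen, was Rpl3l, the striated muscle paralog of ribosomal protein L3. Rpl3l was at 3.29, 3.04 and 2.54 CPM at day 7 and 1.011, 1.05 and 1.1999 CPM at day 4 (1.45 ± 0.30, adjusted p = 0.0051). It supplied 1.69 to 2.36% of the L3 TPM at day 7 and 0.68 to 0.86% at day 4. With the fragment length term its log2 fold change was 0.16.

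Itga9, the alpha 9 integrin subunit, rose to 10.6, 12.1 and 11.2 CPM, against 2.89, 2.40 and 2.59 CPM at day 4 (2.10 ± 0.13). Myh14, a nonmuscle myosin heavy chain, rose to 9.46, 12.2 and 14.3 CPM, against 2.31, 3.03 and 3.60 CPM (1.99 ± 0.16). Hspb7, a small heat shock protein of heart and skeletal muscle, rose to 123.4, 133.2 and 101.2 CPM, against 56.9, 54.1 and 58.8 CPM (1.08 ± 0.11). For each of these genes the 2 groups were separated by a gap wider than the range within either group. Ighm, the constant region gene of the immunoglobulin mu chain, rose to 76.1, 86.4 and 65.4 CPM, against 30.04, 29.7 and 30.3 CPM (1.34 ± 0.12), and was at 0 CPM in undifferentiated myoblasts. Cxcl5, a chemokine, rose to 11.6, 12.6 and 15.4 CPM, against 6.28, 6.12 and 7.55 CPM (0.98 ± 0.24). Akap12, a scaffold of protein kinase A, fell to 2.61, 3.16 and 3.41 CPM, against 5.70, 6.15 and 6.70 CPM (-1.04 ± 0.14), and averaged 60.9 ± 1.48 CPM (SD, n = 3) in day 0 myoblasts. In the long-fragment library of unpatterned day 7, Itga9, Myh14, Hspb7 and Akap12 were at 12.4, 8.37, 109.3 and 2.78 CPM, against 12.04 and 12.6, 9.34 and 9.79, 114.7 and 112.5, and 3.02 and 4.28 CPM in the other libraries of that group. Ighm was at 64.8 CPM there, against 74.96 and 67.3 CPM, and Eef1a2 at 1.46 CPM, against 1.97 and 1.90 CPM. Cxcl5 stood apart, at 20.95 CPM in the long-fragment library, against 9.82 and 9.31 CPM in the others.

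**Figure D3:**
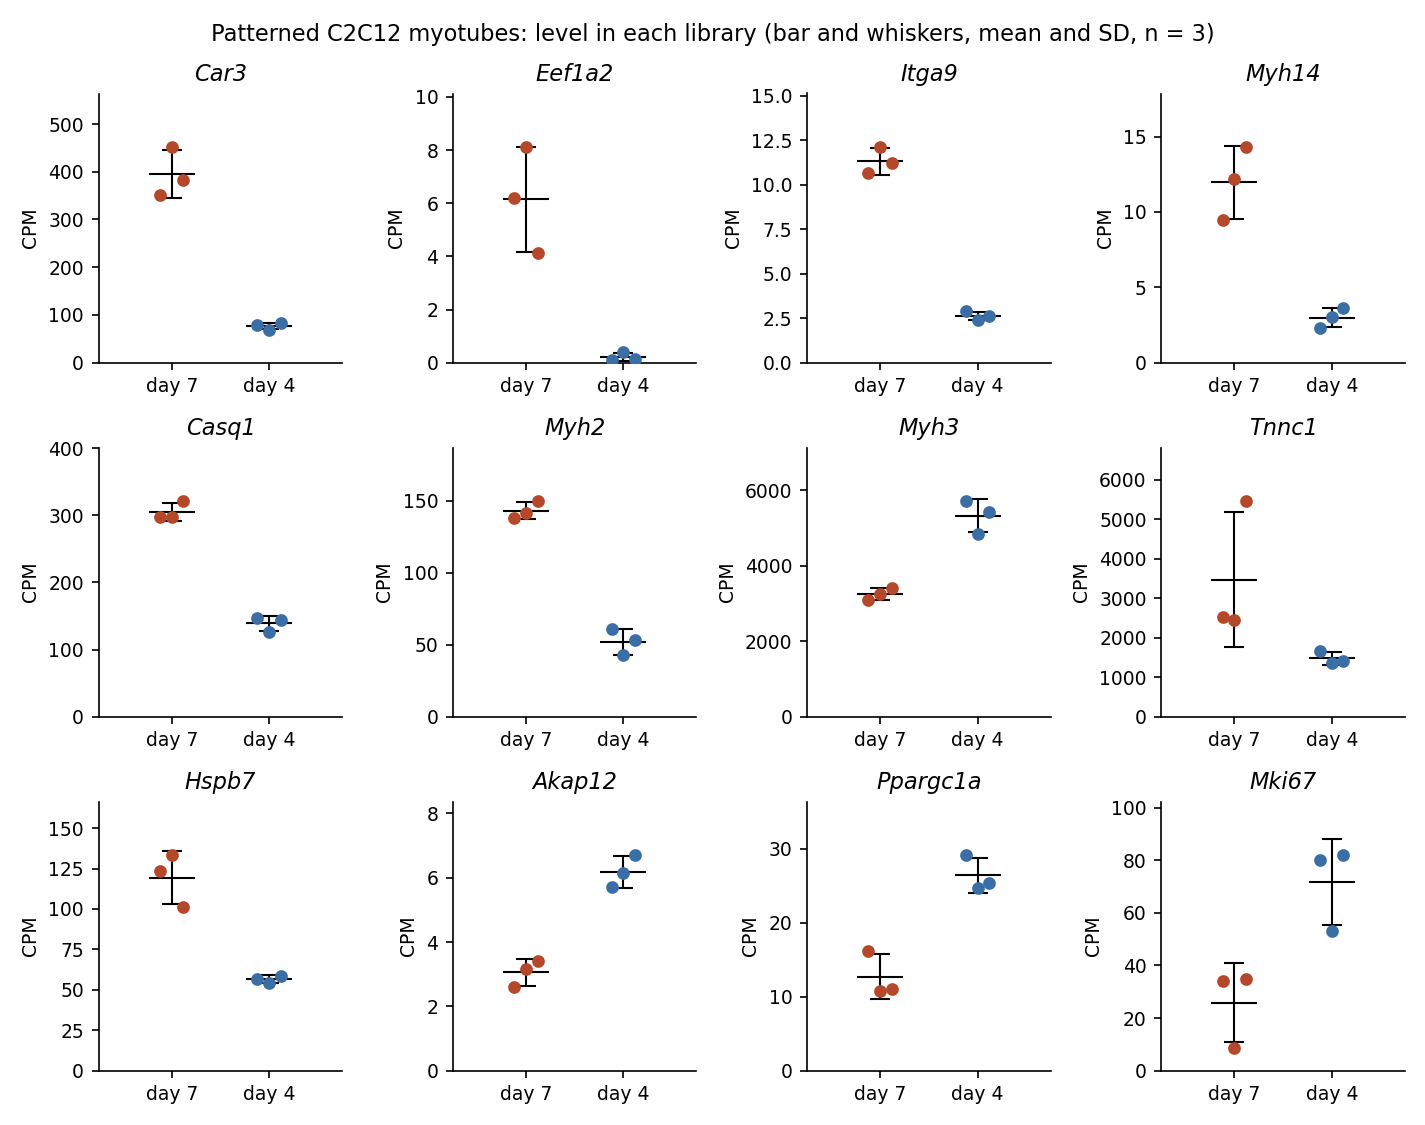
CPM (vertical axes, from 0) of 12 genes in each patterned library, day 7 to the left of day 4, with the mean and SD of 3 libraries. Car3, Itga9, Myh14, Casq1, Myh2 and Hspb7 lay higher in all day 7 libraries, Myh3, Akap12, Ppargc1a and Mki67 lay lower in all of them, and Tnnc1 was set apart by replicate 3.

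Transcripts of the mitochondrial genome were lower at day 7. Of 13 protein genes of the mitochondrial genome 12 fell at day 7 (median log2 fold change -1.52), against 9.03% lower among all genes. Without day 7 replicate 3, 10 fell, 9 fell in every fit without 1 library, and 1 fell with the 6 libraries alone. The share of mitochondrial genome transcripts in all counts was 1.93, 1.78 and 0.90% at day 7 and 4.24, 2.73 and 4.03% at day 4. mt-Nd2, a subunit of complex I, fell to 394.5, 283.7 and 171.9 CPM, against 1734, 837.3 and 1757 CPM (-2.35 ± 0.42, adjusted p = 0.0022). mt-Nd4 fell to 581.7, 259.8 and 284.7 CPM, against 2551, 942.5 and 2676 CPM (-2.45 ± 0.46). The exception was mt-Nd6, the gene read from the opposite strand, named after its values were seen, at 199.5, 191.0 and 344.5 CPM at day 7 and 246.7, 193.4 and 240.5 CPM at day 4. In unpatterned day 7, mt-Nd2 was at 1382 CPM in the long-fragment library and at 390.8 and 669.6 CPM in the others. Unpatterned day 4 libraries had 1123 to 1606 CPM. Plastic day 7 did not have that order: mt-Nd2 was at 1240 CPM in the library with the shortest fragments (175.8 bases). It was at 747.7 and 804.6 CPM in the others (191.1 and 198.2 bases). None of the 13 passed with the fragment length term, under which their median was -1.38.

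Of 79 respiratory chain and ATP synthase genes of the nuclear genome 16 rose and 6 fell (median 0.21), against 11.3% higher and 9.03% lower among all genes. But 2 rose and 3 fell without day 7 replicate 3, and the median was -0.08 with the fragment length term. Ndufa2, of complex I, was at 81.2, 74.8 and 173.1 CPM at day 7 and 50.001, 45.7 and 46.2 CPM at day 4 (1.21 ± 0.25), and Atp5g2, of the ATP synthase, was at 53.1, 82.3 and 36.5 CPM at day 7 and 127.4, 100.6 and 110.3 CPM at day 4 (-0.97 ± 0.20). In both, replicate 3 of day 7 lay farthest from day 4. Ppargc1a, the coactivator that drives mitochondrial gene programs, fell to 16.2, 10.8 and 11.1 CPM, against 29.1, 24.7 and 25.4 CPM (-1.04 ± 0.15, adjusted p = 0.00033), and was called without each library in turn. Glycolysis and glycogen genes (6 of 37 higher, 3 lower, median 0.08), the tricarboxylic acid cycle (3 of 27 higher, 2 lower) and fatty acid oxidation (4 of 30 higher, 3 lower) had shares near those of all genes.

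Of 10 creatine and adenylate metabolism genes 2 rose and 2 fell, against 11.3% higher and 9.03% lower among all genes, and each of these 4 calls held without every library in turn and with the 6 libraries alone. Ckmt2, the creatine kinase of muscle mitochondria, rose to 20.8, 26.7 and 25.8 CPM, against 11.99, 11.3 and 10.5 CPM (1.11 ± 0.15, adjusted p = 0.00031). Ampd1, the muscle AMP deaminase, rose to 20.9, 21.2 and 16.8 CPM, against 12.3, 9.60 and 10.1 CPM (0.89 ± 0.14). The 2 that fell act in creatine synthesis: Gatm fell to 88.1, 93.6 and 82.2 CPM, against 141.6, 133.1 and 129.3 CPM (-0.61 ± 0.09), and Gamt to 27.8, 33.0 and 26.4 CPM, against 45.9, 47.0 and 45.0 CPM (-0.66 ± 0.11). None of the 4 passed with the fragment length term.

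Proliferation genes were lower at day 7. Of 42 cell cycle genes 17 fell and 1 rose (median -0.44), against 9.03% lower among all genes, and 10 fell without day 7 replicate 3. Mki67, a marker of cycling cells, was at 33.9, 8.58 and 35.0 CPM at day 7 and 80.2, 52.9 and 81.8 CPM at day 4 (-1.47 ± 0.35, adjusted p = 0.0097), with replicate 2 lowest on both days. Ccna2, cyclin A2, fell to 14.3, 14.0 and 11.5 CPM, against 26.2, 23.6 and 21.9 CPM (-0.84 ± 0.17), and Nusap1, a spindle protein, fell to 6.62, 4.47 and 4.76 CPM, against 10.9, 10.1 and 10.1 CPM (-0.93 ± 0.16). All were already far under the day 0 myoblasts, where Mki67 averaged 697.0 CPM and Ccna2 232.6 CPM. In bulk libraries, fewer cycling cells and less RNA per such cell cannot be told apart. Of the cell cycle inhibitors, Gadd45a rose to 245.3, 259.9 and 293.6 CPM, against 155.0, 158.1 and 156.8 CPM (0.76 ± 0.10), and Cdkn1a, which holds myotubes out of the cycle, rose by 0.28 ± 0.09, a call lost in 5 of the 6 fits without 1 library. Cdkn1c fell by 0.73 on the log2 scale (SE 0.18).

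Among myogenic transcription factors, 1 of 19 rose and 3 fell, against 11.3% higher and 9.03% lower among all genes. Myf5, which marks myoblasts, fell to 14.8, 14.3 and 11.6 CPM, against 25.8, 25.4 and 24.8 CPM (-0.89 ± 0.12, adjusted p = 0.00026). Mef2a, a partner of the myogenic factors, fell to 381.7, 284.3 and 290.8 CPM, against 523.9, 541.0 and 529.0 CPM (-0.74 ± 0.12, adjusted p = 0.0011). On unpatterned gelatin at day 7 Mef2a was at 470 CPM in the long-fragment library and at 336 and 403 CPM in the others. Unpatterned day 4 libraries had 456 to 543 CPM, and the part of fragment length was not tested. Myog, the factor that drives terminal differentiation, overlapped between the days at 689.5, 775.9 and 850.6 CPM at day 7 and 674.5, 705.6 and 660.9 CPM at day 4. Myod1 passed with all libraries (0.32 ± 0.11, adjusted p = 0.047), with overlapping groups, and in 1 of the 6 fits without 1 library. Of 18 myoblast fusion genes 5 fell and none rose (median -0.15), against 9.03% lower among all genes, and 3 fell without day 7 replicate 3. Jam2, a junctional adhesion molecule, was at 134.3, 132.7 and 92.1 CPM at day 7 and 177.0, 178.5 and 181.2 CPM at day 4. Unpatterned day 7 cells had Jam2 at 172 CPM in the long-fragment library and at 132 and 154 CPM in the others. At day 4 the unpatterned libraries had 162 to 180 CPM. The imprinted growth genes Plagl1 and Mest fell by 1.55 and 0.78 on the log2 scale.

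Of 15 regulators of muscle splicing 6 fell and 1 rose (median -0.24), against 9.03% lower among all genes. Without day 7 replicate 3, 2 were lower, and 1 was lower in every fit without 1 library. Mbnl1 and Mbnl2, which promote adult splicing patterns, were at 450.0, 225.9 and 324.7 CPM and at 185.7, 80.1 and 112.8 CPM at day 7, against 504.0, 516.3 and 551.1 CPM and 199.2, 228.9 and 229.0 CPM at day 4. Their log2 fold changes were -0.65 ± 0.18 and -0.79 ± 0.22, and both calls were lost without some libraries (adjusted p up to 0.062 and 0.071). Qk, the quaking RNA-binding protein, was at 711.9, 481.6 and 505.0 CPM at day 7 and 787.5, 847.3 and 852.8 CPM at day 4. In all these genes replicate 1 of day 7 lay nearest to day 4 and replicate 2 lowest. On unpatterned gelatin at day 7, Mbnl1, Mbnl2 and Qk were at 572, 215 and 893 CPM in the long-fragment library. In the other libraries of that group they were at 406 and 490, 134 and 174, and 616 and 750 CPM. Unpatterned day 4 libraries had 432 to 543, 172 to 220 and 710 to 820 CPM. The part of fragment length in these values was not tested. Ptbp1, the repressor of adult exons, fell evenly to 67.0, 76.9 and 63.0 CPM, against 91.6, 90.5 and 87.7 CPM (-0.38 ± 0.07, adjusted p = 0.0022).

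Stress and turnover lists leaned upward. Among all genes 11.3% were higher and 9.03% lower. Of 16 hypoxia response genes 8 rose and 1 fell (median 0.44). Car9, carbonic anhydrase 9 of the cell surface, rose to 23.1, 17.7 and 17.5 CPM, against 6.82, 5.82 and 8.24 CPM (1.49 ± 0.20, adjusted p = 0.00022), and Egln3, a prolyl hydroxylase of the oxygen-sensing pathway, rose to 164.6, 186.0 and 144.8 CPM, against 107.3, 110.7 and 103.8 CPM (0.62 ± 0.08). Slc2a1, a glucose transporter, and Bnip3, a mitophagy receptor, rose by 0.36 ± 0.08 and 0.56 ± 0.09. Car9 was at 12.6 to 17.7 CPM at day 7 and 7.77 to 12.1 CPM at day 4 on unpatterned gelatin, and under 1 CPM on plastic at both days. Of 23 autophagy and lysosome genes 9 rose and 1 fell (median 0.16). The lysosomal proteases Ctsl and Ctsb rose by 0.40 ± 0.08 and 0.39 ± 0.08. All 6 calls among 20 genes of the unfolded protein and amino acid stress list were upward, with Hspa5, the main chaperone of the endoplasmic reticulum, at 813.9, 792.9 and 1056 CPM at day 7 and 648.4, 567.4 and 609.7 CPM at day 4. Likewise all 6 calls among 16 atrophy and ubiquitin ligase genes were upward, among them Fbxo40 (0.54 ± 0.11). Without day 7 replicate 3, 4, 8, 3 and 3 genes of these 4 lists rose. With the 6 libraries alone, 1, 0, 0 and 2 of them rose, and none rose with the fragment length term.

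Of 40 collagen and matrix genes 6 rose and 1 fell (median 0.10), against 11.3% higher and 9.03% lower among all genes. Col1a1 was at 188.1, 236.3 and 371.6 CPM at day 7 and 95.0, 171.4 and 137.5 CPM at day 4 (0.98 ± 0.32, adjusted p = 0.038), and Col3a1 at 1572, 1475 and 2611 CPM at day 7 and 1176, 1080 and 1333 CPM at day 4 (0.66 ± 0.20, adjusted p = 0.030). Both calls were lost without replicate 3 of day 7 (adjusted p = 0.20 and 0.22) and without replicate 1 or 3 of day 4, and the call of Col3a1 also without replicate 2 of day 4, while 1 gene of the list rose without day 7 replicate 3. Ccl7, a monocyte chemokine, rose to 9.46, 8.40 and 14.4 CPM, against 3.61, 3.29 and 3.95 CPM (1.56 ± 0.19). Of 20 immediate early genes 3 rose and 4 fell, against 20.3% called among all genes, with Nr4a1 at 22.3, 21.03 and 14.2 CPM at day 7 and 28.6, 38.3 and 32.7 CPM at day 4, and no gene of that list was called without each library in turn.

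**Figure D4:**
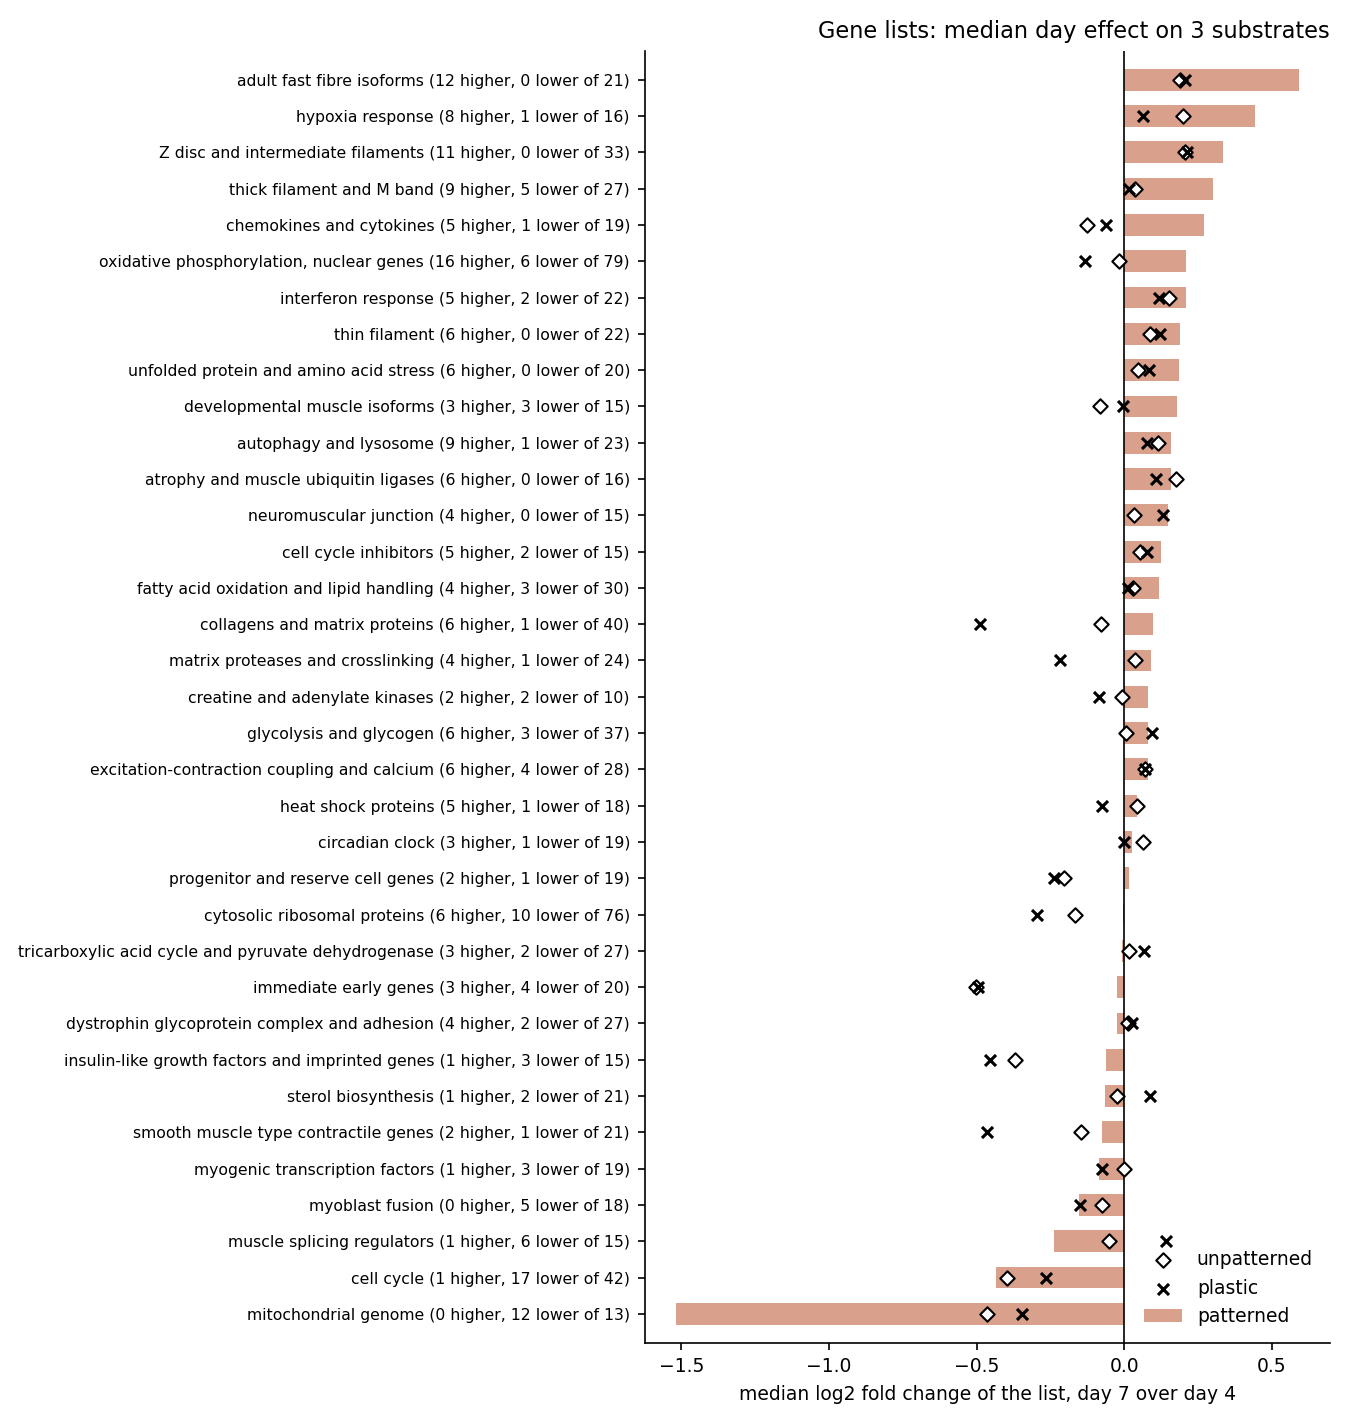
Median log2 fold change of day 7 over day 4 (horizontal axis) for each of 35 gene lists, with bars for patterned, diamonds for unpatterned and crosses for plastic C2C12 cells, and the patterned calls beside each name. The adult fast fibre list stood at 0.59 for patterned, 0.19 for unpatterned and 0.21 for plastic cultures, and the mitochondrial genome at -1.52, -0.46 and -0.35.

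The genes with the largest fold changes included 1 set by a single library. Calb1, the calcium buffer calbindin, was at 1.17, 1.37 and 85.5 CPM at day 7 and 0.94, 0.95 and 0.77 CPM at day 4, so its log2 fold change of 4.995 came from replicate 3 and its adjusted p was 0.76 without that library. AA474408, Lars2 (the mitochondrial leucyl-tRNA synthetase) and Pi4ka (a lipid kinase) had log2 fold changes of 2.57, 2.23 and 2.16, which were -0.58, -0.57 and -0.27 with the fragment length term. In unpatterned day 7, Lars2 was at 76.1 CPM in the long-fragment library and at 584.4 and 593.9 CPM in the others. On plastic, where day 7 also had the shorter fragments, Lars2 was instead lower at day 7 (218 to 367 CPM) than at day 4 (923 to 1079 CPM). AA474408 was likewise at 76.8 to 120.7 CPM at day 7 and 318 to 384 CPM at day 4 on plastic. Of the other genes among the 12 highest, Gsta1 (1.72) and Ctrc (1.74) shared stretches at least 99.5% identical with a transcript of another gene, over 874 and 313 bases. Chtf8 (2.38) shared such a stretch of 2646 bases with a separate gene entry of the same symbol, so its value is not that of both entries. The part of these stretches in the values of the genes was not tested. Gsta1 also rose on plastic (2.72) and on unpatterned gelatin (2.19). Fxyd1, phospholemman, a regulator of the sodium pump, rose by 1.75 ± 0.21 to 4.83, 4.23 and 3.89 CPM, against 1.55, 1.05 and 1.28 CPM. Car3, Itga9, Myh14 and Pvalb completed the 12. The 12 lowest were mt-Nd4, mt-Nd2, mt-Atp8, mt-Atp6, mt-Nd1, Hhip, Fam83b, Veph1, Il2ra, Aspn, Plagl1 and Dynlt1a, with log2 fold changes of -1.51 to -2.45. Hhip, an antagonist of hedgehog ligands, was near its detection limit here, at 0.069, 0 and 0.079 CPM at day 7 and 0.29, 0.30 and 0.27 CPM at day 4. It met the rule on average level through day 0 myoblasts (23.02 CPM), was not tested with the 6 libraries alone, and lost its call in 5 of the 6 fits without 1 library. Il2ra, the alpha chain of the interleukin 2 receptor, was at 0.89, 0.66 and 1.19 CPM at day 7 and 3.43, 3.36 and 3.02 CPM at day 4. In unpatterned day 7, Il2ra, Veph1, Aspn and Dynlt1a were at 3.85, 4.77, 2.96 and 4.205 CPM in the long-fragment library. The others had 1.13 and 2.11, 2.25 and 3.296, 1.29 and 1.801, and 1.29 and 1.84 CPM. The lowest unpatterned day 4 values were 2.93, 3.85, 2.59 and 4.12 CPM. Fam83b and Plagl1 were lower in all unpatterned day 7 libraries than in those of day 4. On plastic, Il2ra, Veph1 and Aspn overlapped between the days. The part of fragment length was not tested.

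Reads assigned to some pseudogenes differed between C2C12 libraries with short and with long fragments. Rps6-ps4, a processed pseudogene whose 750 bases are 100% identical to a transcript of the ribosomal protein gene Rps6, was at 161.7, 118.4 and 336.6 CPM at day 7 and at 0 in all day 4 libraries. Over the 21 C2C12 libraries it was at 17.9 to 326 CPM (raw CPM) in the 8 with mean fragments under 200 bases, whatever their substrate. In the 13 with longer fragments it was at 0. All 8 were day 7 libraries, and the 13 were the day 0 and day 4 libraries and the long-fragment library of unpatterned day 7. The division by fragment length was therefore nearly that by day. The primary libraries did not follow that division: Rps6-ps4 was at 24.3 to 64.8 CPM in primary cells at day 7, with fragments of 202.7 to 211.2 bases, and at 41.1 to 78.1 CPM at day 4, with fragments of 195.8 to 216.0 bases. Gm13835, identical over its 685 bases to a transcript of Psma3, was on patterned gelatin at 34.9, 35.0 and 58.8 CPM at day 7 and at 0 at day 4. Rps6 itself was at 434.4, 492.2 and 540.0 CPM at day 7 and 629.6, 499.9 and 565.1 CPM at day 4, overlapping. These genes were chosen after their values were seen. Of 721 pseudogenes tested, 67 rose and 67 fell (9.29% each), near the 11.3% higher and 9.03% lower among all genes.

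The difference from the other substrates was tested directly. Of 14844 genes, 1744 (11.7%) had a day effect on patterned gelatin that differed from that on plastic, 927 above (6.24%) and 817 below (5.50%). That count ran from 2 (without plastic day 4 replicate 2) to 3498 (without patterned day 7 replicate 1) when single libraries were left out, was 8 without patterned day 4 replicate 1, and was 0 with the fragment length term, where 2771 genes had an unadjusted p under 0.05. For the difference in day effect between patterned and unpatterned gelatin, 0 of 14844 genes passed by edgeR (0%, with 1064 at an unadjusted p under 0.05) and 5 by DESeq2. That no gene passed by edgeR does not show that the effects were equal. Car3, Ckmt2, Tcap and Car9 rose more on patterned gelatin than on plastic, with differences of 0.87 ± 0.18, 1.17 ± 0.23, 1.198 ± 0.30 and 1.47 ± 0.41 in log2 units (adjusted p = 0.021, 0.021, 0.028 and 0.035). Ckmt2 was at 3.44 to 5.40 CPM at day 7 and 4.07 to 5.08 CPM at day 4 on plastic, and at 7.75 to 10.8 CPM and 8.15 to 8.98 CPM on unpatterned gelatin. The splicing regulators Qk, Mbnl1 and Mbnl2 and the factor Mef2a had effects 0.82, 0.86, 0.99 and 0.64 lower on patterned gelatin than on plastic.

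**Figure D5:**
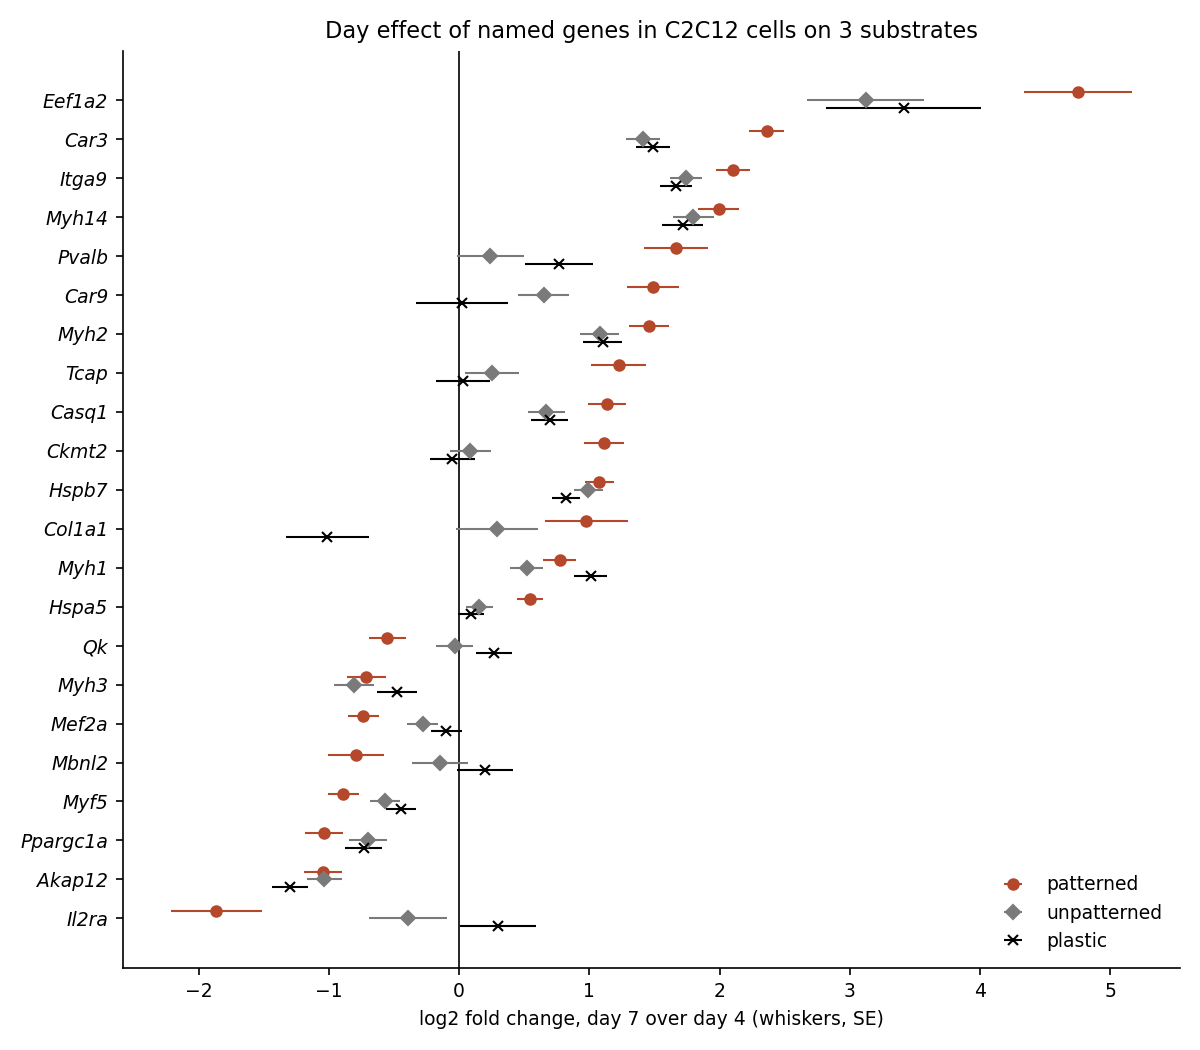
Log2 fold change of day 7 over day 4 with its SE (horizontal axis) for 22 genes in patterned, unpatterned and plastic C2C12 cultures. Eef1a2, Car3, Itga9, Myh14, Myh2 and Hspb7 lay above 0 and Ppargc1a, Akap12, Myf5 and Myh3 below 0 on all 3 substrates, while Ckmt2 and Tcap lay near 0 on plastic.

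The genes that passed on patterned gelatin under all 3 fits also moved on the other substrates, except Cxcl5. Day effects on unpatterned gelatin and on plastic were 1.74 and 1.67 for Itga9, 1.80 and 1.72 for Myh14, 0.99 and 0.82 for Hspb7, and -1.03 and -1.30 for Akap12, each past the threshold. For Cxcl5 they were 0.11 and -0.14, and neither passed. Eef1a2 rose on both (3.12 and 3.41) but reached 1.46 to 1.97 CPM at day 7 on unpatterned gelatin and 0.57 to 0.81 CPM on plastic, against 4.13 to 8.10 CPM on patterned gelatin. The test of the difference in its day effect from plastic did not pass (adjusted p = 0.33).

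In primary cells on patterned gelatin, where fragment lengths overlapped between the days (202.7 to 211.2 bases at day 7 and 195.8 to 216.0 bases at day 4), no gene of 14352 passed between day 7 and day 4 (0%, with 666 at an unadjusted p under 0.05, and 58 by DESeq2). Values are therefore given without a call. Itga9 ran from 5.81 to 102.9 CPM at day 7 and from 1.47 to 30.6 CPM at day 4. Car3 ran from 78.9 to 216.0 CPM at day 7 and from 52.9 to 98.3 CPM at day 4, and Hspb7 from 62.5 to 262.4 CPM at day 7 and from 58.5 to 130.5 CPM at day 4. Myh2 ran from 3.16 to 26.2 CPM at day 7 and from 1.75 to 4.52 CPM at day 4. Myh3, Akap12 and Casq1 likewise overlapped, at 1221 to 7523, 1.56 to 9.33 and 82.9 to 194.4 CPM at day 7 and 2285 to 8586, 1.504 to 9.36 and 88.0 to 174.4 CPM at day 4. For all 7 genes the spread within a group was wide and the groups overlapped, and the 13 mitochondrial genes had a median log2 fold change of -0.02. These ranges take no account of replicate numbers. With a replicate block in the edgeR fit 0 genes passed, and 1667 had an unadjusted p under 0.05. Whether the numbers pair the primary libraries across days was not tested.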

How the data were processed

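RNA of C2C12 and primary mouse myotubes was sequenced as paired-end reads, 1 library per culture. The authors quantified transcripts with Kallisto, and the deposited tables hold estimated counts (not normalised) and TPM (transcripts per 1000000 transcripts in each library, with effective lengths). The build is mm10 per the labels. Neither the version of Kallisto nor its transcript set was stated there. Of 88198 transcripts, 86031 were matched by identifier to GENCODE genes on GRCm38, and the other 2167 (0.723 to 0.893% of counts) were left out. Expected counts were summed per gene over 30205 genes and rounded. Fragment length was taken as the median of length minus effective length over transcripts longer than 3000 bases.

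The test was edgeR's quasi-likelihood F test (edgeR 4.0.16, R 4.3.3; TMM, filterByExpr, Benjamini-Hochberg adjusted p under 0.05) in 1 fit of 21 C2C12 libraries, and for primary cells in a fit of their own 9. Differences in day effect were contrasts of the same fit. Each SE was derived from the log2 fold change and its F statistic. Alternatives used DESeq2 1.42.0, DESeq2 size factors, no filter, only the groups compared, a replicate block, a transcript length correction, limma 3.58.1 on log2(TPM + 1) and each library left out. Fragment length as a covariate was added after the data had been seen. Scripts were tested on simulated data.

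The named genes were the 12 highest and 12 lowest called fold changes (average log2 CPM of at least 1, groups not overlapping, no predicted gene or pseudogene), up to 4 of each of 35 lists by adjusted p, a fixed panel, and the 5 highest and 5 lowest in each difference test. The members, lists and tests were chosen with earlier results of these data known. Near-identical copies were found with blastn 2.17.0 and promoters came from RefSeq. Tables of the authors' own comparisons were not used. P-values measure only the spread between cultures of 1 line.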

Additional observations from a re-analysis of the deposited data

Results flagged for a closer look

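These results stood out because the day effect differed between substrates by a test of the difference itself. In all, 1744 genes had a day 7 minus day 4 effect on patterned gelatin that differed from that on plastic (edgeR quasi-likelihood test of the difference). Among the named genes with such a difference, the log2 effect on patterned gelatin minus that on plastic was above 0 for AA474408 4.34, Lars2 3.90, Col1a1 1.99, Yjefn3 1.76, Il17rc 1.73, Car9 1.47, Tcap 1.198, Ctrc 1.18, Ckmt2 1.17, Col3a1 1.15, Car3 0.87, Gamt 0.51, Myod1 0.51 and Hspa5 0.45. It was below 0 for Jam2 -0.58, Mef2a -0.64, Qk -0.82, Mbnl1 -0.86, Mbnl2 -0.99, Aspn -1.35, Fam83b -1.43, Adgrb3 -1.58, Tmc5 -1.58, Sh3gl2 -1.59, Veph1 -2.01 and Il2ra -2.16. The adjusted p of these named genes ran from 0.017 to 0.049. No gene passed when fragment length was a term in the fit, and the part of fragment length in these differences was not tested otherwise. Fragment length was 175.8 to 198.2 bases at day 7 and 211.8 to 214.8 bases at day 4 on plastic. Yjefn3 and Il17rc were highest in patterned day 7 replicate 3. Yjefn3 was at 3.36, 3.63 and 11.3 CPM at patterned day 7 and 1.95 to 2.53 CPM at day 4. Il17rc was at 17.9, 11.9 and 44.2 CPM and 8.56 to 12.8 CPM, with overlapping groups. Their patterned day 7 against day 4 calls were lost in 1 and 4 of the 6 fits without 1 library.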

How the results depend on the processing

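For patterned day 7 against day 4, 3016 genes passed. The count was 224 with only the groups compared and 8 with the fragment length term, and stayed within 1.5 times under DESeq2, DESeq2 size factors, no filter, the length correction and limma. It ran from 1222 to 4012 with 1 library left out, and was 1511 without day 7 replicate 3 and 1644, 1832 and 1222 without day 4 replicates 1, 2 and 3. For the difference from plastic (1744 genes) it was 2717 by DESeq2, 193 with only the groups compared and 0 with the fragment length term. Left-out libraries gave 2 to 3498: 3498 and 877 without patterned day 7 replicates 1 and 3, 8, 896 and 117 without patterned day 4 replicates 1, 2 and 3, 575 and 420 without plastic day 7 replicates 1 and 3, and 416, 2 and 764 without plastic day 4 replicates 1, 2 and 3. For the difference from unpatterned gelatin, 5 genes passed by DESeq2, and 0 to 1 with 1 library left out (1 without patterned day 7 replicate 1). For primary cells 58 passed by DESeq2 and 0 with any library left out. The cause of these shifts was not tested.

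Same-numbered patterned C2C12 libraries had correlations of -0.08, 0.06 and -0.01 between their deviations from the group means, so the numbers did not pair them. The primary libraries were not part of that check. With a replicate block 3146 genes passed between the days, 2139 for the difference from plastic, 0 for the difference from unpatterned gelatin and 0 in primary cells.

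Of 1499 values for the 100 named genes over all alternatives, 1244 kept direction and call, 234 lost the call, 7 gained it and 14 changed sign. With the fragment length term the log2 fold change was -0.58 for AA474408, -0.57 for Lars2, -0.27 for Pi4ka, -0.0151 for Myh8, -0.12 for mt-Nd6 and -0.12 for Myh7. mt-Nd6 was at -0.032 with the length correction, -0.027 with that and the replicate block, -0.17 by limma, and -0.23 (without day 7 replicate 3) to 0.25 with 1 library left out. With 1 library left out Myh7 was at -0.040 (without day 4 replicate 2) to 0.084 and Myh8 at -0.0070 (without day 4 replicate 2) to 0.14.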
